A study of Callithrix jacchus with 8 samples.

Results

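Gene expression in the marmoset ES cell lines DPZcjESC1-4 was compared between the later and the earlier passage within each line. All 8 libraries of the series entered this comparison, 4 from the earlier and 4 from the later passages, and the members were chosen by the line and passage in their labels, not by measured values. DPZcjESC1 was sampled at passages 46 and 51, DPZcjESC2 at passages 36 and 37, DPZcjESC3 at passages 37 and 41, and DPZcjESC4 at passages 30 and 33. The gap between the libraries of a line was thus 5, 1, 4 and 3 passages, in this order.

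The cells are embryonic stem cells of the common marmoset monkey (Callithrix jacchus), a New World primate, and each line was grown from a single preimplantation embryo. The embryo was a non-compacted morula for DPZcjESC1 and DPZcjESC2, a compacted morula for DPZcjESC3 and an expanded blastocyst for DPZcjESC4. All libraries share the same culture, on mouse embryonic fibroblast feeder cells at reduced oxygen in a medium with serum replacement, and no group was treated or genetically altered. Polyadenylated RNA was sequenced, and the deposited values are read counts per Ensembl gene identifier (ID). According to the study, DPZcjESC1 (male) and DPZcjESC2 (female) carry extra chromosomes whereas DPZcjESC3 (female) and DPZcjESC4 (male) have a normal karyotype. DPZcjESC1 and DPZcjESC2 also share an embryo donor. Line, karyotype, donor and embryo stage are therefore tied together.

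Primate ES cells are kept in a primed pluripotent state by a network of transcription factors around POU5F1, SOX2 and NANOG, and they renew themselves as long as this network suppresses differentiation. At each passage the colonies are dissociated and a part of the cells is seeded again, so that passage number counts rounds of culture. Cultures of this kind usually hold some cells that leave the pluripotent state towards extraembryonic or germ layer fates, and a bulk library averages over all of them.

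The gene totals lay between 10615123 and 12885444 counts per library, and 3 counts corresponded to 0.233 to 0.283 CPM, the counts in each 1000000 gene counts. This range rests on plain totals, whereas the levels below are TMM-normalized CPM, on which the limit differs slightly. Reads outside annotated genes made up a smaller share later than earlier in each of the 4 lines, with a mean change of -0.501 ± 0.476 percentage points (SD, n = 4 lines), and the share held by the 100 most counted IDs was also lower in 4 of 4, by -0.765 ± 0.478 points. In an exact two-sided permutation within lines, 2 of the 16 exchanges gave a mean change of this size for both shares, the fewest that 4 pairs allow and thus no p under 0.05. By contrast, the gene total was higher at the later passage in 2 of 4 lines. DPZcjESC1 at passage 46 stood apart in some listed stress genes, named here after their values had been seen. TRIB3, a stress-induced kinase-like inhibitor, had 313 CPM there and 2.78 to 16.6 CPM in the other 7 libraries, and SESN2, a stress-induced regulator of nutrient signalling, had 591 against 65.9 to 149 CPM. HSPA5, a chaperone of the endoplasmic reticulum, had 1582 CPM there, within the 1512 to 1983 CPM of the other libraries. The tables of all earlier libraries carry another tag in their names than those of all later libraries, and since the labels do not explain it, a batch of this kind and the order of passages cannot be told apart.

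The label of the cells was checked against defining markers. POU5F1, the central pluripotency factor, had 469, 401, 473 and 306 CPM at the earlier passages of DPZcjESC1 to DPZcjESC4 and 448, 477, 462 and 383 CPM at the later ones. LIN28A, an RNA-binding protein of pluripotent cells, had 190.3 to 244 CPM over the 8 libraries, and SALL4, a zinc finger factor of the same network, had 91.4 to 151 CPM. These 3 markers were thus well above the counting limit in every library, and none of the 3 was called different between passages. NANOG, SOX2, UTF1 and GDF3, also set as markers of pluripotency, were higher at the later passage in 4 of 4 lines. Of these, NANOG was called, and their values follow below.

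For each of 15781 IDs with 10 or more counts in at least 2 libraries, edgeR's quasi-likelihood test was applied with line as a block. An ID was called at a fold change of 2 or more with a p-value under 0.05 after Benjamini-Hochberg adjustment. In this test 209 IDs (1.32% of those tested) were called, 111 of them (0.703%) higher and 98 (0.621%) lower at the later passage. Among the IDs that rose were the pluripotency-associated factors PRDM14, KLF4 and NANOG and the secreted inhibitor CER1. Among those that fell were TFAP2A, GATA2 and DLX5, transcription factors of trophoblast and surface epithelium, and the WNT ligand WNT6.

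**Figure D1:**
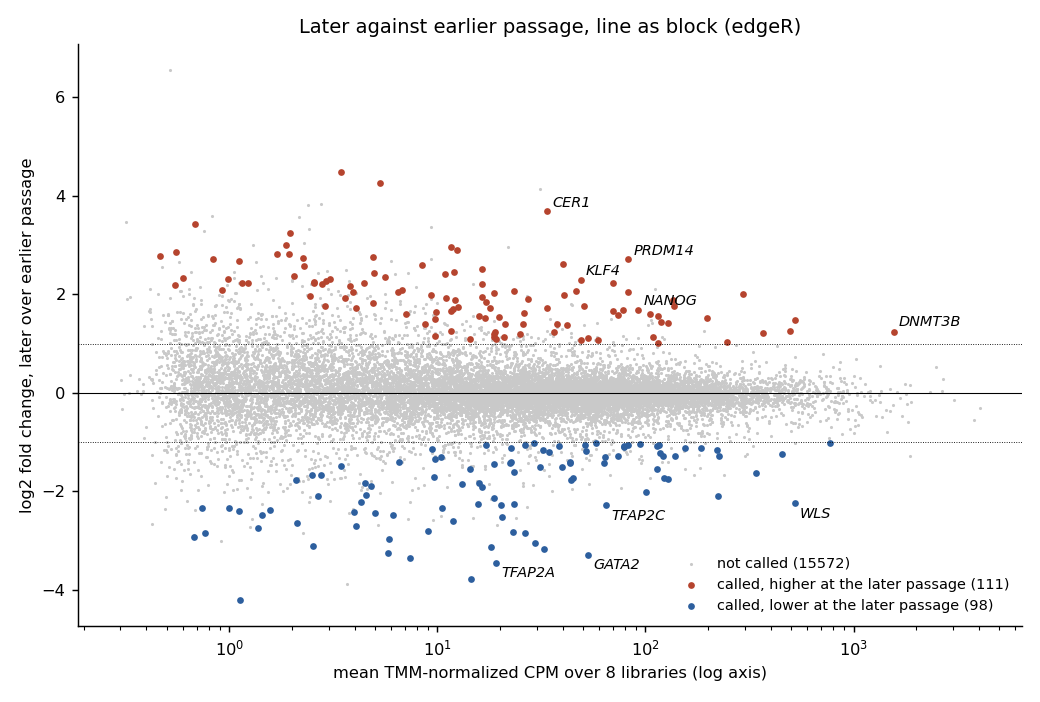
Log2 fold change of the later over the earlier passage (y axis) against the mean TMM-normalized CPM over 8 libraries (x axis, log scale) for 15781 IDs, with called IDs in red (111 higher) and blue (98 lower) and dotted lines at a 2-fold change. The mean levels of called IDs were 0.462 to 1559 CPM (higher) and 0.678 to 772 CPM (lower), within 0.303 to 4031 CPM over all IDs.

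Within these calls, 110 of 111 higher IDs rose in all 4 lines and the remaining one in 3 lines, while 98 of 98 lower IDs fell in all 4 lines. The median log2 fold change was 1.92 for the higher IDs (range 1.01 to 4.48) and -1.74 for the lower IDs (range -4.20 to -1.01), against -0.01 over all IDs tested. All later libraries lay above all earlier libraries in 102 of the 111 higher IDs, and below them in 79 of the 98 lower IDs. Over all IDs tested this held for 5.42% and 4.57%, respectively. These patterns describe IDs that the test itself selected and were not tested again.

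The adjusted p-values of the called IDs lay between 0.0258 and 0.0499, and 2850 IDs had an unadjusted p under 0.05. The number of calls changed when single lines were left out. Without DPZcjESC2 or without DPZcjESC3, edgeR called 0 IDs (2055 and 2159 at an unadjusted p under 0.05), whereas DESeq2 called 453 and 401 in the same libraries. Without DPZcjESC4 edgeR called 68 IDs, and without DPZcjESC1 163, of which 132 were among the 209. Over all 8 libraries DESeq2 called 547 IDs, 199 of them shared with the 209, and the direction was the same for 209 of 209.

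Genes that maintain pluripotency were the first group. Of 20 listed factors, 13 had a tested ID. Of these, 4 were called higher and 0 lower, beside 0.703% and 0.621% of all IDs tested. The median log2 fold change was 0.92 beside -0.01 over all IDs. The other 7 listed factors had no ID that both carried their symbol and passed the count filter, here DPPA3, TDGF1 and ZFP42 among them. PRDM14, a chromatin regulator that guards the pluripotent and germ cell state, had 19.5, 27.1, 17.2 and 22.1 CPM at the earlier passages of DPZcjESC1 to DPZcjESC4. At the later passages it had 165, 128, 186 and 95.2 CPM. All later libraries were above all earlier ones, and PRDM14 was 6.53-fold higher (log2 fold change 2.71, SE 0.25, adjusted p = 0.0258, edgeR). KLF4, a zinc finger factor that is also used for reprogramming, rose from 13.6, 11.95, 16.4 and 25.1 CPM to 103, 60.7, 83.7 and 76.0 CPM. This was 4.90-fold (log2 fold change 2.29, SE 0.22, adjusted p = 0.0258), again without overlap of the groups. NANOG, a homeodomain factor of the core network, rose 3.21-fold, from 38.6, 39.0, 42.3 and 55.3 CPM to 141, 149.6, 159 and 111 CPM (adjusted p = 0.0277). DPZcjESC4 had the highest earlier and the lowest later NANOG level. DNMT3B, the de novo DNA methyltransferase of primed cells, rose 2.35-fold, from 589, 1038, 1297 and 872 CPM to 2399, 2104, 2423 and 1753 CPM (adjusted p = 0.0429).

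The other pluripotency factors did not pass the test. SOX2, the partner factor of POU5F1, had 83.7, 58.2, 102 and 33.5 CPM earlier and 131, 121, 131 and 105 CPM later. It was higher in 4 of 4 lines and its groups did not overlap, but the fold change was 1.89 and the adjusted p 0.0796. UTF1, a chromatin-associated factor of undifferentiated cells, and GDF3, a ligand of the TGF-beta family, were higher in 4 of 4 lines too. Their log2 fold changes were 1.26 (adjusted p = 0.0562) and 1.42 (adjusted p = 0.117), and their groups overlapped. POU5F1 had a log2 fold change of 0.12 (SE 0.12), LIN28A of 0.06 (SE 0.11), SALL4 of -0.07 (SE 0.12) and LIN28B of -0.07. KLF5 and NR0B1 had log2 fold changes of -1.20 and -1.68 with adjusted p-values of 0.242 and 0.31. The members of the list thus differed in size and sign of change.

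**Figure D2:**
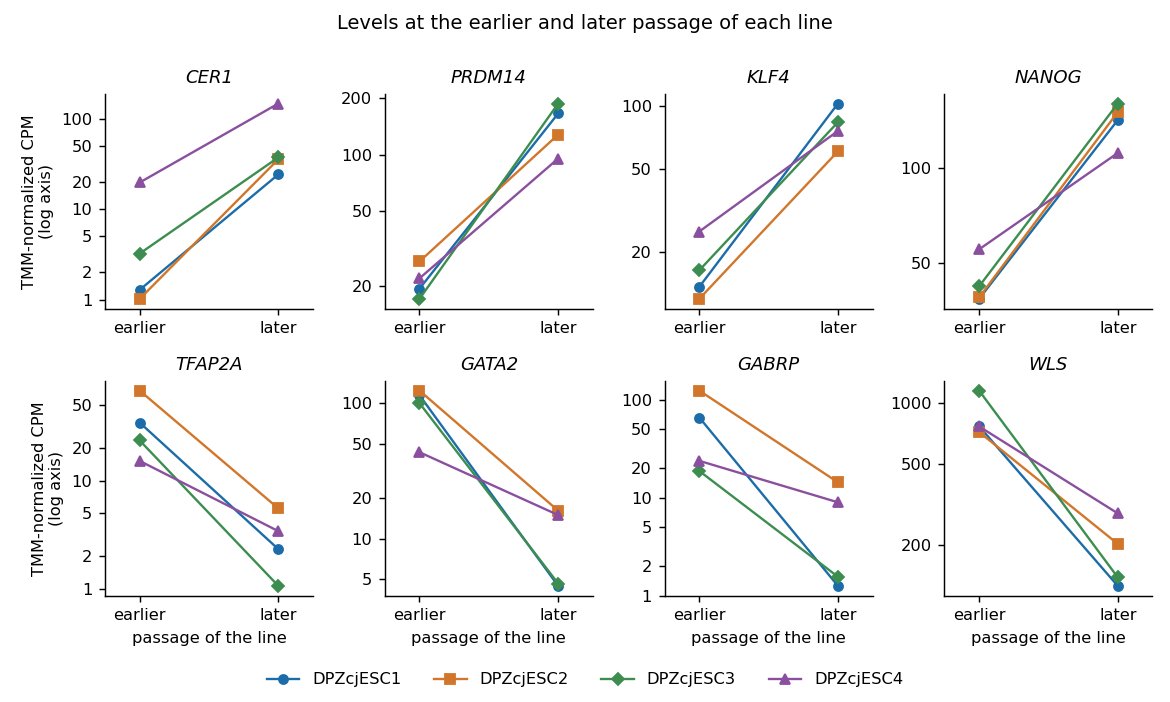
TMM-normalized CPM (y axis, log scale, a separate range in each panel) at the earlier and later passage for 8 called genes, with 1 line and symbol per cell line and 1 library per point. CER1, PRDM14, KLF4 and NANOG were higher and TFAP2A, GATA2, GABRP and WLS lower at the later passage in each of the 4 lines.

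A further 3 genes with a known role in pluripotent or early embryonic cells were named after their values had been seen. NR5A2, a nuclear receptor that can drive POU5F1 transcription, rose from 6.26 to 11.4 CPM at the earlier passages to 21.9 to 32.7 CPM at the later ones (log2 fold change 1.73, adjusted p = 0.0277). DPPA2, a developmental pluripotency-associated chromatin factor, rose from 6.86 to 9.06 CPM to 19.5 to 27.97 CPM (log2 fold change 1.56). PHC1, a subunit of the Polycomb repressive complex, rose from 178 to 249.6 CPM to 438 to 600.3 CPM (log2 fold change 1.22). None of these 3 genes overlapped between the groups.

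By a fixed rule, the 10 called IDs with the largest fold changes in each direction were named among those with 5 CPM or more on average and the same direction in 4 lines. CER1, a secreted inhibitor of NODAL, BMP and WNT signals, led the higher IDs. It had 1.29, 1.02, 3.24 and 19.8 CPM at the earlier and 24.3, 35.7, 37.4 and 147 CPM at the later passages of DPZcjESC1 to DPZcjESC4. DPZcjESC4 had the highest level at both passages, and the lowest later library was just above the highest earlier one. The fitted rise was 12.8-fold (log2 fold change 3.68, SE 0.33, adjusted p = 0.0258).

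LRRTM4, a synaptic adhesion protein, rose from 0.686 to 4.95 CPM to 15.9 to 23.9 CPM (log2 fold change 2.96), and A2ML1, a protease inhibitor of epithelia, from 0.943 to 4.34 CPM to 10.7 to 32.9 CPM (2.89). ADAMTS8, a secreted metalloprotease, rose from 1.11 to 2.67 CPM to 7.45 to 10.7 CPM (2.34). ZBBX (log2 fold change 2.59), SPMIP6, a sperm microtubule inner protein (2.45), and FLACC1 (2.41) reached 8.11 to 31.6 CPM at the later passages, from 0.943 to 7.47 CPM. The IDs without a symbol were ENSCJAG00000005409 (2.62) and ENSCJAG00000010530 (2.52). For each of these the later libraries lay above all earlier libraries.

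Several of the higher genes encode parts of motile cilia, the beating microtubule-based processes of epithelia and sperm. Gene families of the axoneme were therefore collected after the values had been seen, which gives no independent evidence of their direction. Of 72 tested members of 92 listed, 6 were called higher and 0 lower, beside 0.703% and 0.621% of all IDs tested. In all 4 lines 39 rose and 3 fell. The log2 fold change was above 0 for 59, and the median was 0.48 beside -0.01 over all IDs. Their summed level was 980.3 to 1332 CPM at the earlier and 1406 to 1662 CPM at the later passages. CFAP45, a protein inside the ciliary microtubules, rose from 23.4, 48.2, 47.3 and 32.3 CPM to 136, 107, 129.5 and 98.5 CPM (log2 fold change 1.68, adjusted p = 0.0277). RSPH4A, a radial spoke head protein, rose from 0.943 to 1.73 CPM to 5.64 to 7.17 CPM (2.17), and DNAH6, a dynein heavy chain, from 0.6004 to 1.02 CPM to 3.00 to 6.54 CPM (2.24). TEKT1 (2.05), CFAP276 (2.21) and ODAD4 (1.15) were the other called members. Outside the family list, HYDIN (log2 fold change 1.57), a central pair protein of the axoneme, rose from 26.2 to 63.3 CPM to 73.1 to 142 CPM, and SPAG6 (1.56), from the same structure, from 47.0 to 71.9 CPM to 121 to 211 CPM.

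The largest fall among the named genes was that of ENSCJAG00000019348, which has no symbol in the table used (log2 fold change -3.78). TFAP2A, an AP-2 transcription factor of trophoblast, surface ectoderm and neural crest, had 34.5, 68.2, 23.6 and 15.3 CPM at the earlier and 2.33, 5.54, 1.065 and 3.42 CPM at the later passages. It was 10.96-fold lower (log2 fold change -3.45, SE 0.34, adjusted p = 0.0263), and DPZcjESC2 had the highest level at both passages. GATA2, a zinc finger factor of trophoblast and blood precursors, fell from 114, 124, 99.96 and 43.4 CPM to 4.48, 16.1, 4.67 and 14.9 CPM. This was 9.85-fold (log2 fold change -3.30, SE 0.51, adjusted p = 0.0358), and the fall was smallest in DPZcjESC4. DLX5, a homeodomain factor, fell from 5.66, 21.6, 6.84 and 7.503 CPM to 0.359, 2.45, 0 and 1.67 CPM (log2 fold change -3.25). The 0 of DPZcjESC3 at passage 41 allows a level of up to 0.253 CPM, the value of 3 counts there before TMM normalization.

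GABRP, a GABA receptor subunit found in epithelia, fell from 66.1, 124.6, 18.8 and 23.8 CPM to 1.255, 14.4, 1.56 and 8.98 CPM (log2 fold change -3.18, adjusted p = 0.0475). NPNT, an integrin ligand of basement membranes, fell from 14.8 to 104 CPM to 3.11 to 9.45 CPM (-3.05). SALL3, a zinc finger factor related to SALL4, fell from 31.0 to 65.6 CPM to 1.43 to 12.8 CPM (-2.84), and EBF4, a helix-loop-helix factor, from 5.67 to 15.2 CPM to 0.717 to 2.18 CPM (-2.96). ENSCJAG00000013806 without a symbol completed the 10 (-3.13). In none of them did the groups overlap.

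The trophoblast list held 7 genes, of which 5 had a tested ID. Of these, 0 were called higher and 2 lower, TFAP2A and TFAP2C, beside 0.703% and 0.621% of all IDs tested. In all 4 lines 4 of the 5 fell, and the median log2 fold change was -1.93. TFAP2C, an AP-2 factor of trophoblast and germ cells, had 144, 123, 129 and 37.4 CPM at the earlier and 11.03, 30.7, 23.0 and 19.3 CPM at the later passages (log2 fold change -2.27, SE 0.40, adjusted p = 0.0464). CDX2, the factor that specifies trophectoderm, had 17.8, 6.21, 5.64 and 21.4 CPM earlier and 0.538, 4.09, 1.64 and 7.23 CPM later. It was lower in 4 of 4 lines but its groups overlapped and it did not pass the test (-1.93, adjusted p = 0.121). The same held for KRT7, a keratin of simple epithelia (-1.86, adjusted p = 0.106). TEAD4, a trophectoderm factor that other cells express too, had a log2 fold change of 0.14. The summed level of the 5 genes was 129.8 to 292 CPM at the earlier and 55.4 to 111 CPM at the later passages. In these bulk libraries fewer cells of a type and less RNA per cell cannot be told apart.

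AP-2, GATA, DLX, GRHL and OVOL families, which regulate epithelial and trophoblast genes, were gathered after the values had been seen. The list therefore gives no independent evidence of their direction. Of 13 tested members of 22 listed, 7 were called lower and 0 higher, beside 0.621% and 0.703% of all IDs tested. The median was -2.27. The summed level was 392 to 746 CPM at the earlier and 108 to 239.5 CPM at the later passages, without overlap. This sum is a description and includes members that were not called, such as GRHL2 and GATA6. Beside TFAP2A, TFAP2C, GATA2 and DLX5, the called members were DLX3, GRHL3 and OVOL1. DLX3 had 0.834 to 4.40 CPM at the earlier passages and at most 0.364 CPM at the later ones, near or below the value of 3 counts. GRHL3, a grainyhead factor of the epidermal barrier, fell from 64.2, 43.3, 23.1 and 12.1 CPM to 4.75, 6.64, 4.18 and 5.80 CPM (log2 fold change -2.53, adjusted p = 0.0366). OVOL1, a zinc finger repressor in epithelia, fell from 3.98 to 26.2 CPM to 1.31 to 2.33 CPM (-2.48). GATA4 and GATA6, factors of the endoderm, were not called, with log2 fold changes of 0.26 and -0.50.

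**Figure D3:**
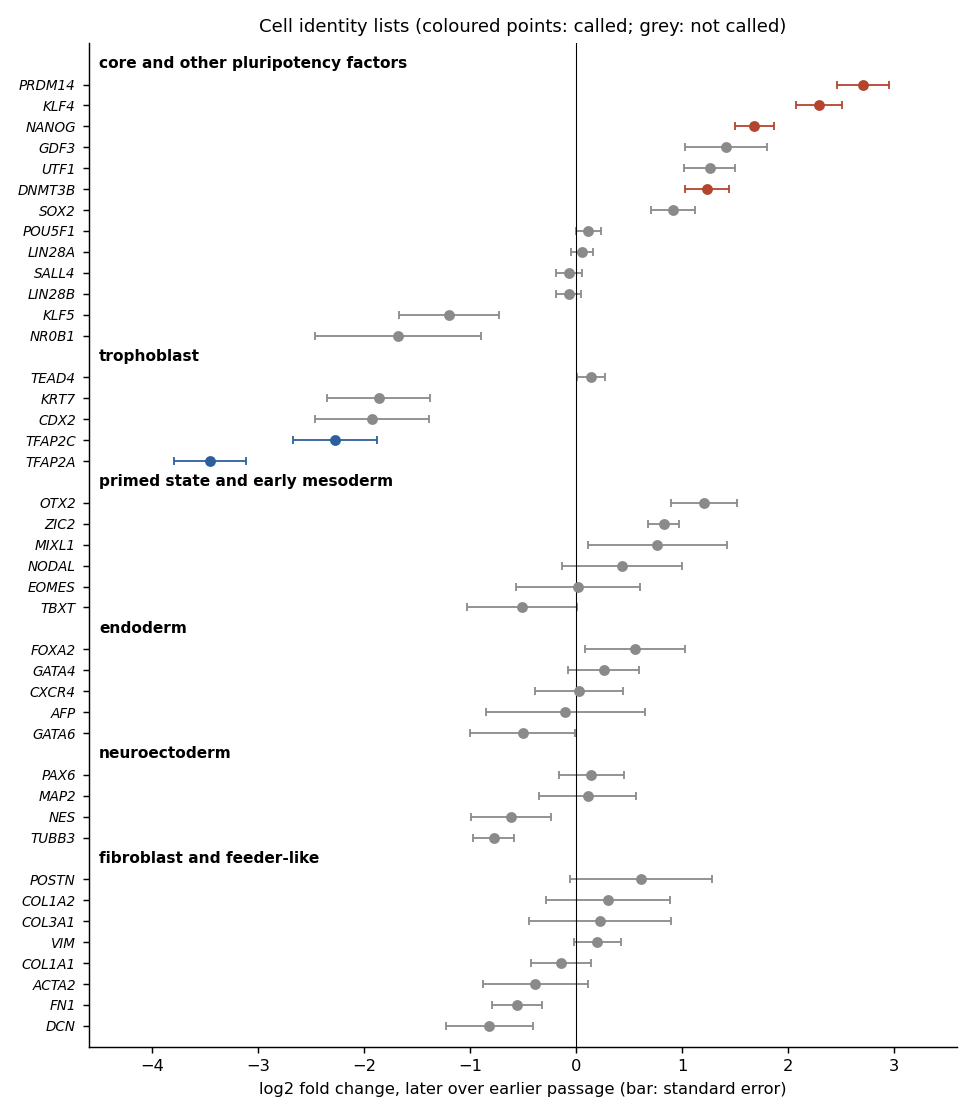
Log2 fold change of the later over the earlier passage (x axis, with the standard error as bar) for the tested members of 6 lists of cell identity genes, each row 1 gene, with called genes coloured and others in grey. The 4 called pluripotency factors lay to the right of 0 and the 2 called trophoblast genes to the left, and no gene of the other 4 lists was called.

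No member of the other 4 cell identity lists was called, beside 0.703% of all IDs tested called higher and 0.621% lower. With so few genes per list, 0 calls is near those shares and is no result about these cell types. In the list of primed state and early mesoderm genes, 6 of 10 were tested, with a median of 0.60. ZIC2, a zinc finger factor of primed cells, had an adjusted p of 0.0455 but a log2 fold change of 0.83, below the 2-fold limit, and TBXT, the mesoderm factor brachyury, had -0.51. For endoderm 5 of 6 genes were tested (median 0.03), and for neuroectoderm 4 of 6 (median -0.25). TUBB3, a neuronal tubulin, was lower in 4 of 4 lines (-0.78, adjusted p = 0.0984), and NES, an intermediate filament of neural precursors, in 3 of 4 (-0.61, adjusted p = 0.455). Of the fibroblast and feeder-like genes 8 of 10 were tested, and their median was 0.03. Their summed level was 5299.8 to 10974 CPM at the earlier and 2651 to 9484 CPM at the later passages, lower in 3 of 4 lines and higher in DPZcjESC3. COL1A1, a collagen of fibroblasts, had a log2 fold change of -0.14, and VIM, their intermediate filament, of 0.20. Feeder-derived and marmoset reads cannot be told apart in these counts, and the part of this list in the results was not tested.

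WNT signalling genes moved in both directions. WNT ligands act through FZD receptors with LRP co-receptors, and secreted DKK, SFRP and WIF1 proteins restrain them. Of 40 tested members of 65 listed, 4 were called higher and 3 lower, beside 0.703% and 0.621% of all IDs tested. The list was gathered after the values had been seen, which gives no independent evidence of direction. Of the 40, 12 had a log2 fold change above 0 and 28 below 0, and the median was -0.25. Their summed level was 2799 to 3512 CPM at the earlier and 2014 to 2522 CPM at the later passages. WLS, the carrier that brings WNT ligands to the cell surface, fell 4.69-fold, from 771, 723, 1157 and 769.9 CPM to 126, 203, 139 and 287 CPM (log2 fold change -2.23, SE 0.27, adjusted p = 0.0277). WNT6, a ligand, fell from 12.3, 29.3, 8.04 and 4.17 CPM to 0.179, 3.00, 0.246 and 1.67 CPM (-3.35, adjusted p = 0.04). Its later levels in DPZcjESC1 and DPZcjESC3 were near or below the value of 3 counts, so the size of the fall is uncertain. PTK7, a WNT co-receptor, fell from 271 to 364 CPM to 83.2 to 193 CPM (-1.27).

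FZD5, a receptor, rose 3.41-fold, from 41.1, 61.9, 74.8 and 73.9 CPM to 177, 243, 257 and 172 CPM (log2 fold change 1.77, SE 0.16, adjusted p = 0.0258). The inhibitors WIF1 (1.88) and DKK4 (2.38) and DACT1 (2.02), an intracellular regulator, rose as well. WIF1 went from 2.83 to 9.71 CPM to 11.4 to 25.3 CPM, and DACT1 from 3.35 to 11.3 CPM to 20.3 to 41.5 CPM. DKK4 was low, with 0.157 to 1.92 CPM earlier and 0.545 to 6.60 CPM later, and its groups overlapped. AXIN2 and LEF1, both usual targets of the pathway, were not called (-0.12 and -0.89). RNF43 (-1.90), NOTUM (-1.36), NKD1 (-0.96) and LGR5 (0.41) of the same list were not called either. TBX3, a T-box factor outside this list that was named after its values had been seen, fell from 158, 208, 100.4 and 172 CPM to 32.4, 44.3, 21.9 and 67.6 CPM (-2.01, adjusted p = 0.0258).

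Most listed genes of culture conditions and growth were not called, as holds for all IDs tested, of which 0.703% were called higher and 0.621% lower. The lists are short, so 0 calls in a list is near these shares and is no result about its genes. All 9 tested hypoxia genes of 10 listed had log2 fold changes below 0, with a median of -0.61, but 0 were called. ADM, a secreted peptide induced by low oxygen, had the largest change, from 102, 14.1, 42.0 and 12.4 CPM to 14.5, 6.64, 8.68 and 6.99 CPM (-1.83, adjusted p = 0.054). The summed level of the 9 genes was 1066 to 1732 CPM at the earlier and 675 to 956 CPM at the later passages. For the cell cycle 10 of 12 genes were tested with 0 calls and a median of 0.01, and MKI67, a proliferation marker, had 0.05. Of the genes linked to culture adaptation of human pluripotent cells 4 of 7 were tested, and the 2 called higher were NANOG and DNMT3B again. BCL2L1, an inhibitor of apoptosis, had -0.33 (median of the list 0.50). Among stress and immediate early genes 5 of 10 were tested with 0 calls and a median of -0.40, and among p53 targets 4 of 10 with 0 calls and a median of -0.23. The summed p53 target level was 648 CPM in DPZcjESC1 at passage 46 and 113 to 193 CPM in the other 7 libraries, and SESN2 alone made up 591 of the 648 CPM. SESN1, a related gene, had 20.2 CPM there, the lowest of the 8 libraries.

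The size of the change differed between the lines, each with 1 library per passage and therefore without a test. In DPZcjESC1, 1531 IDs (9.7% of those tested) were more than 2-fold higher on the log2(CPM + 1) scale and 1176 (7.45%) lower. This balance turned at log2(CPM + 5), with 625 higher and 823 lower IDs, and among IDs with a mean of 10 CPM or more, with 584 and 826. DPZcjESC3 had 1055 (6.69%) higher and 403 (2.55%) lower IDs. In DPZcjESC2 these were 211 (1.34%) and 499 (3.16%), and in DPZcjESC4 175 (1.11%) and 290 (1.84%). The root mean square change was 0.836 in DPZcjESC1, 0.609 in DPZcjESC3, 0.474 in DPZcjESC2 and 0.399 in DPZcjESC4. DPZcjESC2 with a gap of 1 passage thus changed by more than DPZcjESC4 with a gap of 3.

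The called IDs changed in each of the lines. The 111 higher IDs had median changes of 2.02, 1.16, 1.61 and 1.13 in DPZcjESC1 to DPZcjESC4 on the log2(CPM + 1) scale, and the 98 lower IDs had -1.55, -1.48, -1.48 and -0.92. In DPZcjESC2, 77 of the 111 and 83 of the 98 were past 2-fold between 2 neighbouring passages. In DPZcjESC4, 73 of 111 were past 2-fold but 41 of 98. Across the 15781 IDs, the changes of 2 lines were correlated with Pearson's r between 0.177 (DPZcjESC3 and DPZcjESC4) and 0.479 (DPZcjESC2 and DPZcjESC4), a description over genes that are not independent. Of all IDs, 2187 (13.9%) rose and 2189 fell in all 4 lines.

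**Figure D4:**
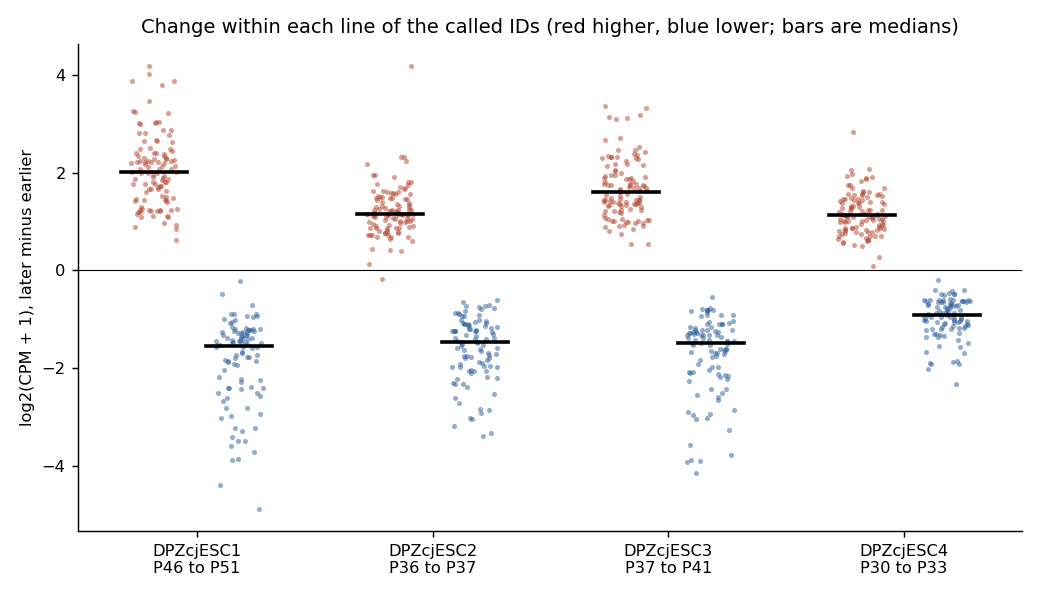
Change from the earlier to the later passage in log2(CPM + 1) (y axis) of the 111 called higher (red) and 98 called lower (blue) IDs in each cell line (x axis), 1 point per ID, with black bars at the medians. The medians of the higher IDs lay between 1.13 and 2.02 and those of the lower IDs between -0.92 and -1.55.

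The passage numbers of the lines overlap, so that the order within a line and the number itself could be set side by side. Passage 37 was the later passage of DPZcjESC2 and the earlier passage of DPZcjESC3. Of the 111 higher IDs, 109 were higher in DPZcjESC2 than in DPZcjESC3 at passage 37, by a median log2 difference of 1.52, and 96 of the 98 lower IDs were lower, by -1.19. Of all 15781 IDs 7699 were higher and 8069 lower, with a median of -0.01. Both libraries had entered the selection of these IDs, most of which did not overlap between the groups, so that these counts were largely fixed by the selection and are given as a description.

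DPZcjESC1 at passage 46 was an earlier library although its number exceeded that of the later libraries of the other 3 lines. The higher IDs were lower there than in DPZcjESC2 at passage 37 in 108 of 111 cases, than in DPZcjESC3 at passage 41 in 111 and than in DPZcjESC4 at passage 33 in 109. The lower IDs were higher there in 95, 96 and 98 of 98 cases. The same holds for these counts, since the libraries had entered the selection too. PRDM14 had 19.5 CPM at passage 46 of DPZcjESC1 and 95.2 CPM at passage 33 of DPZcjESC4, and TFAP2A had 34.5 and 3.42 CPM. With the number of passages in place of their order, both genes were also called by edgeR (adjusted p = 0.0147 and 0.0345), among 451 IDs in all, and the order and the number were not told apart here.

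To read the direction in libraries that had no part in the choice of IDs, IDs were chosen on 3 lines, at an unadjusted p under 0.05 and 2-fold or more, and read in the line left out. Of the IDs chosen as higher, 92.3% (337 of 365), 82.2% (521 of 634), 97.3% (402 of 413) and 68.0% (546 of 803) rose in the left-out DPZcjESC1 to DPZcjESC4, respectively. Between 48.0% and 50.8% of all IDs rose in these lines. Of the IDs chosen as lower, 86.3%, 89.3%, 77.1% and 89.2% fell in DPZcjESC1 to DPZcjESC4, against 49.1% to 51.9% of all IDs. The lowest of these shares was that of higher IDs in DPZcjESC4, where the median change was 0.36. Among IDs with a mean of 10 CPM or more this share was 85.8% (median 0.73), and the lowest was 79.1%, for lower IDs in DPZcjESC3. That mean was taken over all 8 libraries, those of the left-out line included. The left-out libraries also carry the same tags for earlier and later as the others, so a batch is not separated here.

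**Figure D5:**
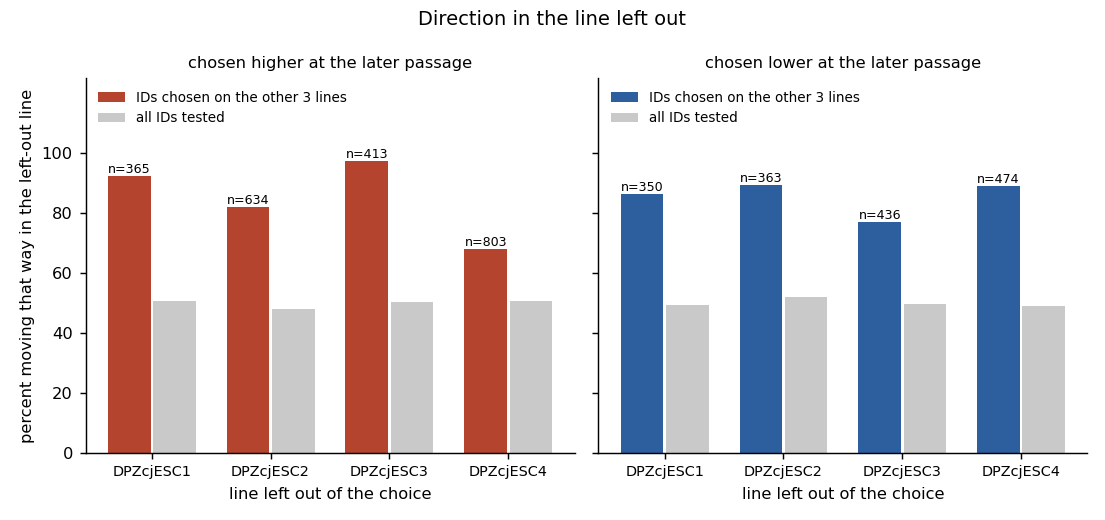
Percent of IDs chosen on 3 lines that moved the same way in the line left out (coloured bars, y axis, with the number chosen as n), beside the percent of all IDs tested that moved that way (grey bars), for each left-out line (x axis). Coloured bars reached 68.0% to 97.3% for IDs chosen as higher and 77.1% to 89.3% for IDs chosen as lower, and grey bars lay between 48.0% and 51.9%.

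Whether the passage change differed between the 2 lines from non-compacted morulae and the 2 lines from later stages was tested as an interaction. edgeR called 0 IDs (0% of those tested), with 280 at an unadjusted p under 0.05 and a smallest adjusted p of 0.999993. DESeq2 called 4 IDs. With 2 lines in each stage group this does not show that the changes were alike, and stage cannot be told apart from karyotype and embryo donor. For CER1 the fitted rise was larger in the lines from non-compacted morulae, by a log2 difference of 1.53. Its unadjusted p was 0.0151 and its adjusted p 0.999993 (edgeR). For PRDM14 the difference, taken the same way, was -0.11 with an unadjusted p of 0.8293.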

How the data were processed

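The authors sequenced polyadenylated RNA from 8 libraries, 2 passages of each of 4 lines, and deposited read counts per Ensembl gene ID, not normalized (submitters' processing notes: CASAVA 1.8.2, STAR 2.3.0e, SAMtools 0.1.18, HTSeq 0.6.1p1). The tables hold 32338 IDs, and their summary lines were left out of totals and tests; reads outside genes made up 29.4 to 32.9% of uniquely placed reads. Reads with several hits are not counted, so genes with near-identical copies can be too low. Groups were taken from the sample titles.

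IDs with 10 or more counts in 2 or more libraries (15781) were tested with the quasi-likelihood method of edgeR 4.0.16 under R 4.3.3 after TMM normalization, with line as block and Benjamini-Hochberg adjustment. The pairing comes from the design, since both libraries of a pair stem from the same line and embryo. Level differences between lines are removed by the block. The p-values set the change from earlier to later against its variation among these 4 lines, estimated with information shared across IDs. Levels are TMM-normalized CPM. The log2 fold changes are those of the fit, and each SE is the absolute log2 fold change over the root of its F value. The fit was also run on counts simulated under its own model, which checks the code and not the p-values given here. Symbols came from a reference table that names 10715 of the tested IDs (67.9%); positions and sequences are not reported here. DESeq2 1.42.0 and other settings were alternatives. Single values were compared by an exact two-sided permutation within lines. Changes within a line used log2(CPM + 1). Summaries and plots were made with pandas 2.3.3, numpy 2.4.6 and matplotlib 3.10.9 under Python 3.11.15. The 10 IDs named in each direction were those called with the largest log2 fold changes, the same direction in 4 lines and a mean of 5 CPM or more. Comparison, lists and rules were chosen with earlier results of these data known, and the ciliary, WNT and AP-2 to OVOL family lists after the values of the genes had been seen.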

Additional observations from a re-analysis of the deposited data

Results flagged for a closer look

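In groups of 4 libraries, 114 sets of values were searched for a library far from the other 3 by Dixon's criterion, and 10 were found. The criterion's rate of about 1 in 20 holds for independent, normally distributed values. Most sets here are untransformed levels of called genes, so that rate is no measure for the 10. CER1 was far higher in DPZcjESC4 than in the other lines, with 19.76 CPM at the earlier passage (next highest 3.236) and 147.4 CPM at the later one (next highest 37.43). DPZcjESC4 was also highest at the earlier passage for ENSCJAG00000005409, with 21.76 CPM (next 8.23), and for DKK4, with 1.918 CPM (next 0.3699). DPZcjESC2 was highest at the earlier passage for ZBBX, with 4.639 CPM (next 2.001), for DLX5, with 21.62 CPM (next 7.503), and for HYDIN, with 63.3 CPM (next 31.31). DPZcjESC3 was highest at the earlier passage for WLS, with 1157 CPM (next 771.1). OVOL1 was highest in DPZcjESC1 at both passages, with 26.25 CPM (next 7.47) and 2.331 CPM (next 1.454). The reason for these levels was not tested.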

How the results depend on the processing

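The 209 IDs called (111 higher, 98 lower) became 547 (294 and 253) with DESeq2, 100 (53 and 47) with edgeR's older quasi-likelihood method and 451 (295 and 156) with the number of passages in place of their order. Without the replicate block the count was 167 (106 and 61), 126 of them shared. DESeq2's size factors gave 209, all IDs without a count filter 163, filterByExpr 179 and no fold minimum 252. Leaving out 1 line gave 0 to 163 calls with edgeR (0 to 78 higher, 0 to 85 lower) and, chosen after seeing the data, 311 to 570 with DESeq2: without DPZcjESC1 311 (151 higher, 160 lower), without DPZcjESC2 453 (274 and 179), without DPZcjESC3 401 (177 and 224) and without DPZcjESC4 570 (310 and 260). For the stage interaction, 0 calls became 4 with DESeq2 and 2 without DPZcjESC2. All 209 kept their direction in each fit over 8 libraries that tested them. Of 220 values of the 20 named IDs under alternatives, 150 kept their call, 70 no longer passed (40 of them without DPZcjESC2 or DPZcjESC3) and 0 reversed. Counts past 2-fold within a line fell with a larger offset or a level minimum, for DPZcjESC1 from 1531 higher and 1176 lower IDs to 625 and 823 at log2(CPM + 5), and to 584 and 826 at a mean of 10 CPM or more. The causes were not tested. At these depths, levels under 0.283 CPM (before TMM normalization) cannot be told from none.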
